A study of Homo sapiens with 4 samples.

Results

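NRSF/REST sites were examined at 10 human genes of the neuronal microtubule and neurofilament cytoskeleton, out of 20163 protein-coding genes. The genes were listed by name, with earlier results of these data known. They comprise the 4 stathmins (STMN1, STMN2, STMN3 and STMN4), the neuronal beta tubulin TUBB3 and the tau gene MAPT. The others are the internexin gene INA and the 3 neurofilament genes NEFL, NEFM and NEFH. Every called site inside a gene or within 10 kb of it (GENCODE release 44 on hg19) was taken, which gave 12 of the 5323 sites in the list for basal SF-1 and 12 of the 5059 sites in the list for increased SF-1. Both libraries came from chromatin of H295R/TR SF-1 cells precipitated with the same NRSF/REST antibody (Millipore) and sequenced. This is a clone of the human adrenocortical carcinoma line H295R that carries a doxycycline-inducible SF-1 transgene, so both groups share the tumour background and the transgene, and differ in 3 days of doxycycline for increased SF-1 against none for basal SF-1. There was 1 library per dosage, so differences between dosages describe these libraries only and were not tested. Expression was not measured in these files, so neither the SF-1 level nor the expression of the listed genes was checked here.

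NRSF/REST is a zinc-finger repressor that binds the RE1 element and keeps neuronal genes silent in cells outside the nervous system, recruiting corepressors and histone deacetylases. Its best known targets include ion channel, synaptic and cytoskeletal genes of neurons. Stathmins bind tubulin and promote microtubule disassembly, TUBB3 is a tubulin subunit typical of neurons, tau stabilizes axonal microtubules, and the neurofilament subunits with internexin form the intermediate filaments that set axon calibre.

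The RE1 element was searched as its core, CTGTCC and GGTGCTG with 2 bases between them, on both strands. Up to 2 mismatches were allowed in the 13 fixed bases. Of the 12 sites in each list, 9 held such a match. The 21 bases around each match are printed 5′ to 3′ in the direction of the consensus, on hg19, with its fixed positions in capitals, because they show how close each bound element is to the consensus. Substitutions are counted from 1 at the first capital.
TUBB3, site in intron 1, chr16:89992912-89992932, minus strand, 0 mismatches: ggcgCTGTCCttGGTGCTGac
INA, site in intron 1, chr10:105038765-105038785, plus strand, 0 mismatches: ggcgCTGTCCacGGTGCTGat
NEFH, upstream site, chr22:29874664-29874684, plus strand, 0 mismatches: ggccCTGTCCccGGTGCTGaa
STMN3, site at the start, chr20:62284687-62284707, plus strand, T4G: ggtgCTGGCCatGGTGCTGgc
STMN3, site in intron 1, chr20:62276777-62276797, minus strand, T4G and C6T: agggCTGGCTgtGGTGCTGaa
TUBB3, narrower site in intron 1, chr16:89990893-89990913, minus strand, T4G and G12C: gtccCTGGCCttGGTCCTGac
MAPT and STMN1, which had no site, are shown for comparison, since each held a near match that no site covered.
MAPT, intron 9, chr17:44076223-44076243, plus strand, T4G: gtgcCTGGCCttGGTGCTGcc
STMN1, inside the gene record but beyond the end of its reference transcript, chr1:26214924-26214944, minus strand, G3A and T14C: agcaCTATCCcaGGTGCCGag
The substitution T4G recurred in both STMN3 matches, in the narrower TUBB3 match and in the uncovered MAPT match. Position 4 was T in 6 of the 9 matches at the listed genes and in 88.3% of the best matches of the 2164 basal sites that held one. Before the core, from the outermost printed base inward, G, G, C and G stood in 8, 8, 7 and 5 of the 9 matches. The shares of all were 66.4, 57.3, 44.5 and 53.5%. Between the parts, A and T stood in 2 and 7 of the 9, against 51.3 and 53.4%. At the printed bases after the core, A stood in 6 and 3 of the 9, against 68.1 and 51.6%. The free bases thus differed from all matches in both directions.

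The exact elements of TUBB3, INA and NEFH are shown again with 50 bases to either side, for the sequence in which each is set, and the capitals mark the consensus with the 2 bases between its parts. None of these windows touched an annotated exon of any transcript.
TUBB3, chr16:89992864-89992978, minus strand: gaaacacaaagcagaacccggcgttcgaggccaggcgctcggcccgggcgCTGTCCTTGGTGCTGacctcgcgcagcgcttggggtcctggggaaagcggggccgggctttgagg
INA, chr10:105038719-105038833, plus strand: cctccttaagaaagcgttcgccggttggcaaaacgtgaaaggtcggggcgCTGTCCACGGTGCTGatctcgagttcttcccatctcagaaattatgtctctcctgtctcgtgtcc
NEFH, chr22:29874618-29874732, plus strand: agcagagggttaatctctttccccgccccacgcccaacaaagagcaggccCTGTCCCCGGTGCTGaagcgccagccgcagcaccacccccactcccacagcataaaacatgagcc

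Of the 10 genes, 7 had a site, and these were the same 7 at both dosages: STMN2, STMN3, STMN4, TUBB3, INA, NEFM and NEFH. STMN1, MAPT and NEFL had none at either dosage. Among all protein-coding genes, 13.9% had a site within 10 kb at basal SF-1, 13.6% at increased SF-1 and 10.5% at both. Because the listed genes were chosen with earlier results of these data known, this contrast was not tested. The listed genes were not longer than others, with a median length of 17674 bp against 27219 bp for all protein-coding genes. More than 1 site was found at STMN2, STMN3, TUBB3 and NEFH, 4 of the 7 genes with a site, in each list. Of all genes with a site, 23.1% had at least 2 in the basal list and 22.6% in the other. These counts take sites as called. The 2 basal sites of STMN2 lay 151 bp apart and would join under a merging distance of 500 bp. STMN2 would then no longer count among the genes with more than 1 site in the basal list. Basal sites of TUBB3 that lay 51 bp apart, and sites of STMN2 251 bp apart at increased SF-1, would also join. Such merging left 10 sites at the listed genes in the basal list and 11 in the other. For every one of the 24 sites the nearest protein-coding start was that of the listed gene itself.

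**Figure D1:**
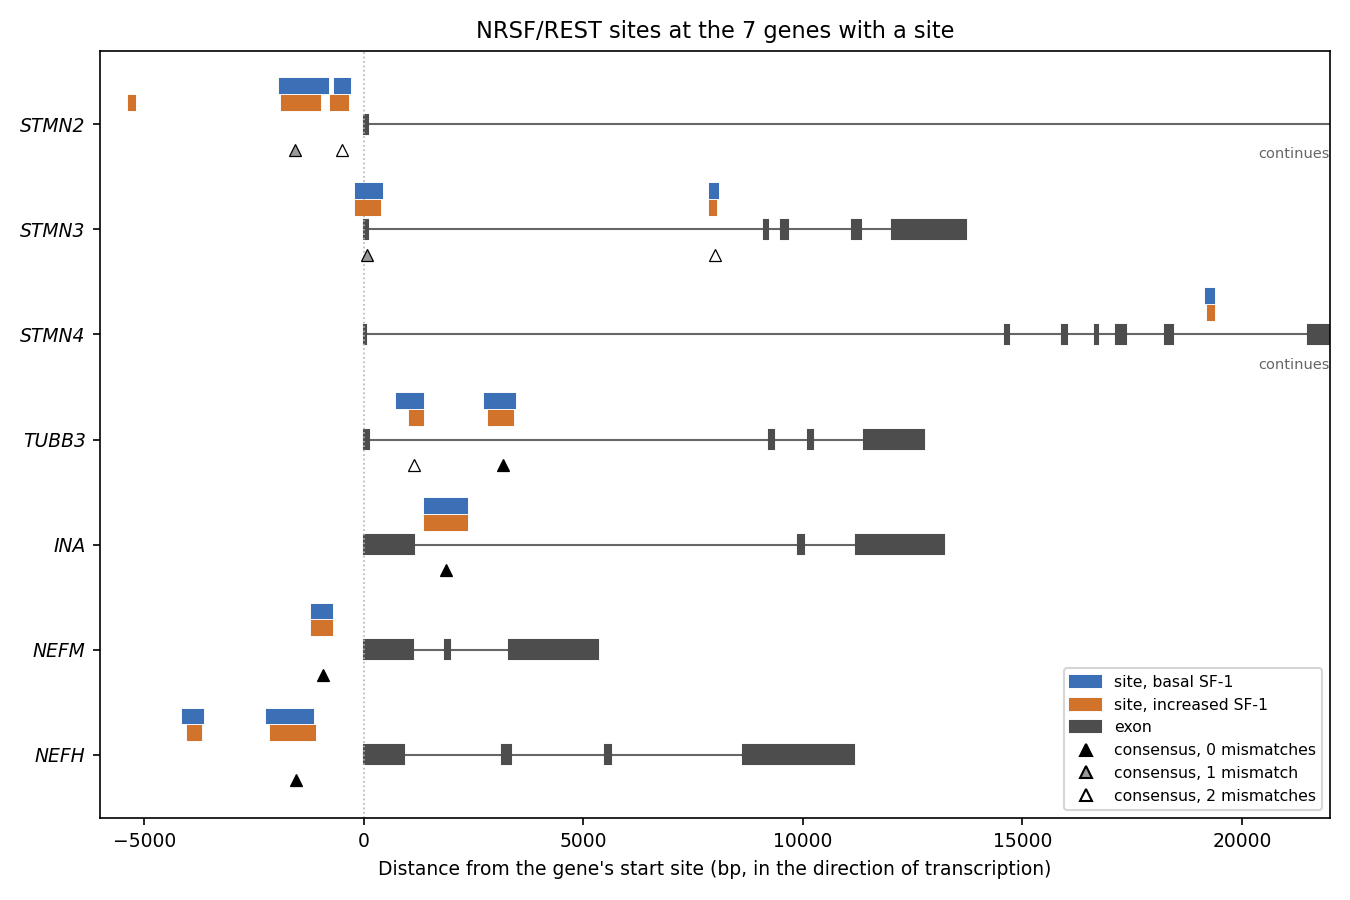
Position of every NRSF/REST site at the 7 genes with a site, in bp from the start of the reference transcript in the direction of transcription. Blue bars are sites at basal SF-1, orange bars sites at increased SF-1, dark boxes exons, and triangles consensus matches filled by their number of mismatches. STMN2 region 1 appears in orange only and TUBB3 region 1 in blue only.

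At STMN2, whose product (SCG10) regulates microtubules in growing axons, the sites lay upstream of the start. The main one, region 2, was 1099 bp wide at basal SF-1 (chr8:80521451-80522549, order number 786 of 5323) and 849 bp wide at increased SF-1 (chr8:80521501-80522349, order number 756 of 5059). The order number is the authors' numbering of the sites in a list. Its midpoint lay 1352 and 1427 bp before the start, and it held a match with 1 mismatch. Region 3 followed after a gap of 151 bp at basal and 251 bp at increased SF-1, with widths of 349 and 399 bp, order numbers 2532 and 2518, and a match with 2 mismatches. Region 1 was called at increased SF-1 only, 5277 bp before the start. It was 149 bp wide, stood at order number 4474 and held no match even at 3 mismatches. STMN2 thus had a wide and a narrower site side by side in both libraries, and a further one in 1 library.

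STMN3 (SCLIP), another neuronal stathmin, had a site over its start and a second one in intron 1. The first measured 599 bp (chr20:62284351-62284949, order number 981) and 549 bp (chr20:62284401-62284949, order number 1137), with the midpoint 127 bp past the start at basal SF-1. Its match with 1 mismatch lay in coding exon 1, on the strand opposite to the gene, and covered the start codon at chr20:62284696-62284698. The second site lay further on by 7451 bp at basal and 7501 bp at increased SF-1, with its basal midpoint 7977 bp past the start, and was narrow in both lists, 199 bp (order number 3502) and 149 bp (order number 3770). The G+C content of the site at the start was 75.0%, the highest among the listed genes and above the median of 45.5% over all basal sites.

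STMN4 (RB3), the brain stathmin, had 1 narrow site in intron 6, with its midpoint 19271 bp past the start at basal SF-1. It was 199 bp wide at basal SF-1 (chr8:27096551-27096749, order number 3848) and 149 bp wide at increased SF-1 (order number 3996). No match was found in it with up to 3 mismatches, although 1 with 2 mismatches lay within 100 bp of the edge of the basal site. Among the genes with a site, STMN4 was the only one without the consensus in any of its sites. STMN1, the stathmin expressed in many dividing cells, had no site, and the nearest one lay 153123 bp away on its 3′ side in MAN1C1 at both dosages.

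TUBB3 had 3 sites at basal SF-1 and 2 at increased SF-1, all in intron 1, which an annotated readthrough gene (ENSG00000198211) also spans. The widest, region 3, measured 699 bp (chr16:89992501-89993199, order number 322) and 549 bp (chr16:89992601-89993149, order number 805), 3100 bp past the start at basal SF-1, and held the exact element. Region 2 was 399 bp wide (chr16:89990701-89991099, order number 2091) and 299 bp wide (chr16:89990801-89991099, order number 2577) and held the match with 2 mismatches, 2 bp from its basal midpoint. Region 1, 51 bp before region 2, was called at basal SF-1 only (chr16:89990501-89990649). It was 149 bp wide with order number 4412 and held no match. Regions 2 and 3 were 1401 bp apart at basal and 1501 bp at increased SF-1. In region 3 the parts of the consensus, with up to 1 mismatch in each, also occurred in the same order at distances of 10 and 15 bases. No share over all sites is set beside these pairs, so they describe the letters of the window only.

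MAPT, the longest of the 10 genes at 133808 bp, had no site within it or within 10 kb. The nearest site lay 35744 bp before it at basal SF-1 and 35844 bp at increased SF-1, in the antisense gene MAPT-AS1. That site was 899 bp wide (chr17:43935251-43936149, order number 521) and 749 bp wide (chr17:43935301-43936049, order number 534) and held a match with 1 mismatch, G12C. The protein-coding start nearest to it was that of SPPL2C, 13453 bp from the basal midpoint. MAPT was therefore outside the rule at both dosages with a wide site on its 5′ side.

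INA, which encodes alpha-internexin, had a single site in intron 1 with the same limits in both lists. It measured 949 bp (chr10:105038301-105039249) and stood at order number 796 at the basal and 810 at increased SF-1. The exact element lay 1 bp from its midpoint, 1881 bp past the start. Along with the site at NEFM, it was the only one whose limits were the same at both dosages.

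NEFM, the medium neurofilament subunit, had a site 449 bp wide upstream of its start in both lists (chr8:24770101-24770549), with order numbers 1851 and 2212. The midpoint lay 949 bp before the start, within the long non-coding RNA gene ENSG00000272163 on the opposite strand, and the site held an exact element 26 bp from the midpoint. NEFL, the light subunit, is the neighbour of NEFM and faces it. No site lay in NEFL or within 10 kb, and the nearest one, 37919 bp from its 3′ end, was that of NEFM. The region of NEFL with 10 kb to either side held 4 matches with 2 mismatches and none closer to the consensus.

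NEFH, the heavy subunit, had 2 upstream sites at both dosages. Region 2 was 1049 bp wide (chr22:29874001-29875049, order number 219) and 999 bp wide (chr22:29874101-29875099, order number 222), with the exact element 1532 bp before the start. These were the lowest order numbers at the listed genes in either list. Region 1, further upstream by 1451 bp at basal and 1601 bp at increased SF-1, had its midpoint in the non-coding gene RFPL1S and was 449 bp wide (chr22:29872101-29872549, order number 1938) and 299 bp wide (chr22:29872201-29872499, order number 2415) and held no match with up to 3 mismatches. At 449 bp it was the widest basal site of the listed genes without the consensus, a width shared by NEFM's site with the exact element.

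Most sites at these genes were present in both libraries. In each list 11 of the 12 sites overlapped a site of the other list at a minimum of 1 bp, or 91.7% (64.6 to 98.5% as 95% Wilson interval, which covers counting error only). Over all sites the share was 64.5% in the basal list and 67.9% in the list for increased SF-1. Sites at the listed genes were also wider than most, with medians of 449 and 424 bp against 299 bp in both lists, and sharing rose with width. Of the sites of 400 to under 700 bp, 99.0% were shared in the basal list. Of those under 200 bp, 18.5% were shared in the basal list and 24.5% in the other. At the listed genes, 2 of 3 sites under 200 bp were shared in each list, as were all wider ones. The 2 sites present at 1 dosage, at STMN2 and TUBB3, were both 149 bp wide.

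Widths were compared in the 11 pairs of overlapping sites. At increased SF-1 the site was narrower in 8 pairs, equally wide in 2 (INA and NEFM) and wider in 1 (STMN2 region 3). Among all 3327 sites that overlapped 1 site of the other list and no more, 38.0% were narrower at increased SF-1. That share was not matched to the greater width of the sites at the listed genes, and the contrast was not tested. The median difference, increased minus basal, was -50 bp at the listed genes, with a range from -250 bp (STMN2 region 2) to 50 bp, against 0 bp over all pairs. Limits fall on 50-bp steps, so the median is 1 step. The order number, taken as a percentage of the list's length, was larger at increased SF-1 in 11 of 11 pairs, against 65.9% of all pairs. The list for increased SF-1 is shorter (5059 against 5323 sites), which by itself raises this percentage for an unchanged number. As raw numbers, STMN2 region 2 (786 at basal, 756 at increased SF-1) and region 3 (2532 and 2518) came earlier at increased SF-1. The median difference was 6.70 percentage points at the listed genes and 1.02 over all pairs, and the smallest and largest at the listed genes were 0.178 and 11.7 points. What the order ranks is not given in the sources used here, and the score is the same for every site. With 1 library per dosage, no spread between replicates can be set against these differences.

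**Figure D2:**
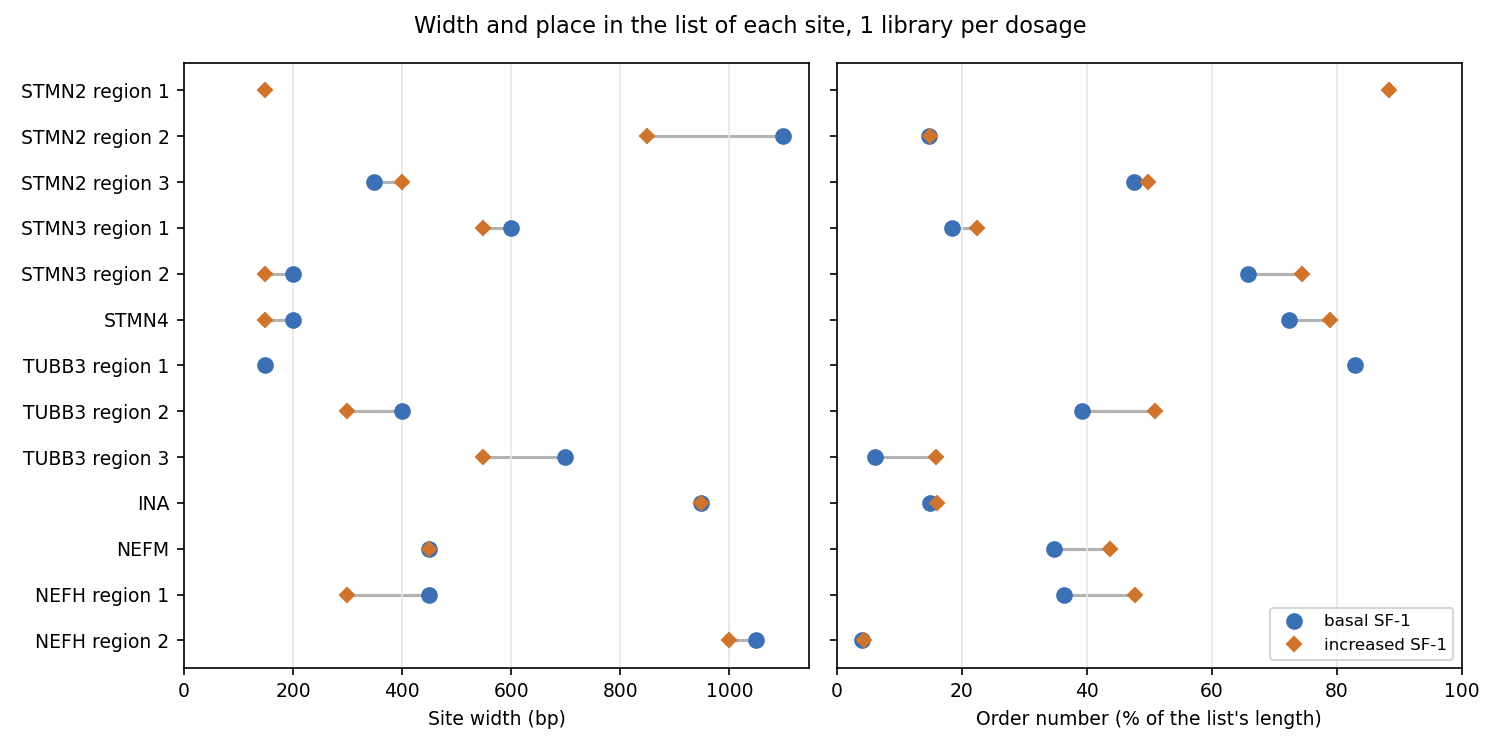
Left, width in bp, and right, order number as a percentage of the list's length, for each site at the listed genes, with basal SF-1 as blue circles and increased SF-1 as orange diamonds joined by a line where the sites overlap. In all 11 pairs the diamond lies to the right of the circle in the right panel, and in 8 it lies to the left in the left panel. Each point is 1 site in 1 library.

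The position of the sites in relation to the start is given as a description, since sites were taken only from the gene and 10 kb around it. The midpoint was within 5 kb of the gene's start for 10 of the 12 basal sites and 9 of the 12 sites at increased SF-1. The exceptions were the intron sites of STMN3 and STMN4 at both dosages and STMN2 region 1 at increased SF-1. The median distance was 1517 bp at basal and 1744 bp at increased SF-1. Sites upstream (STMN2, NEFM, NEFH) and sites inside the gene (STMN3, STMN4, TUBB3, INA) were both found.

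The consensus was present with up to 2 mismatches in 9 of 12 sites in each list, 75.0% (46.8 to 91.1%). Over all sites it was present in 40.7% of basal sites and 42.1% of sites at increased SF-1. The interval covers counting error only and treats neighbouring sites of a gene as independent, so the contrast was not tested. Exact elements made up 4 of the 9, at TUBB3, INA, NEFM and NEFH. STMN2 and STMN3 had 1 mismatch at best. The windows of the same width 10 kb to either side of these sites held a match in 0 of 24 cases in each list, and over all sites in 1.79% and 1.80% of windows. The share with the consensus rose with width in the whole lists, from 9.24% of basal sites under 200 bp to 81.0% of those of 700 bp and over. Within the 4 classes of width, the listed genes had the consensus in 1 of 3, 2 of 2, 3 of 4 and 3 of 3 basal sites, from narrow to wide. In 8 of the 9 matches the centre was within 150 bp of the basal midpoint, and in STMN2 region 2 it was 205 bp away. The match ran on the gene's own strand in 4 cases (STMN3 intron 1, INA, NEFM and NEFH) and on the opposite strand in 5.

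**Figure D3:**
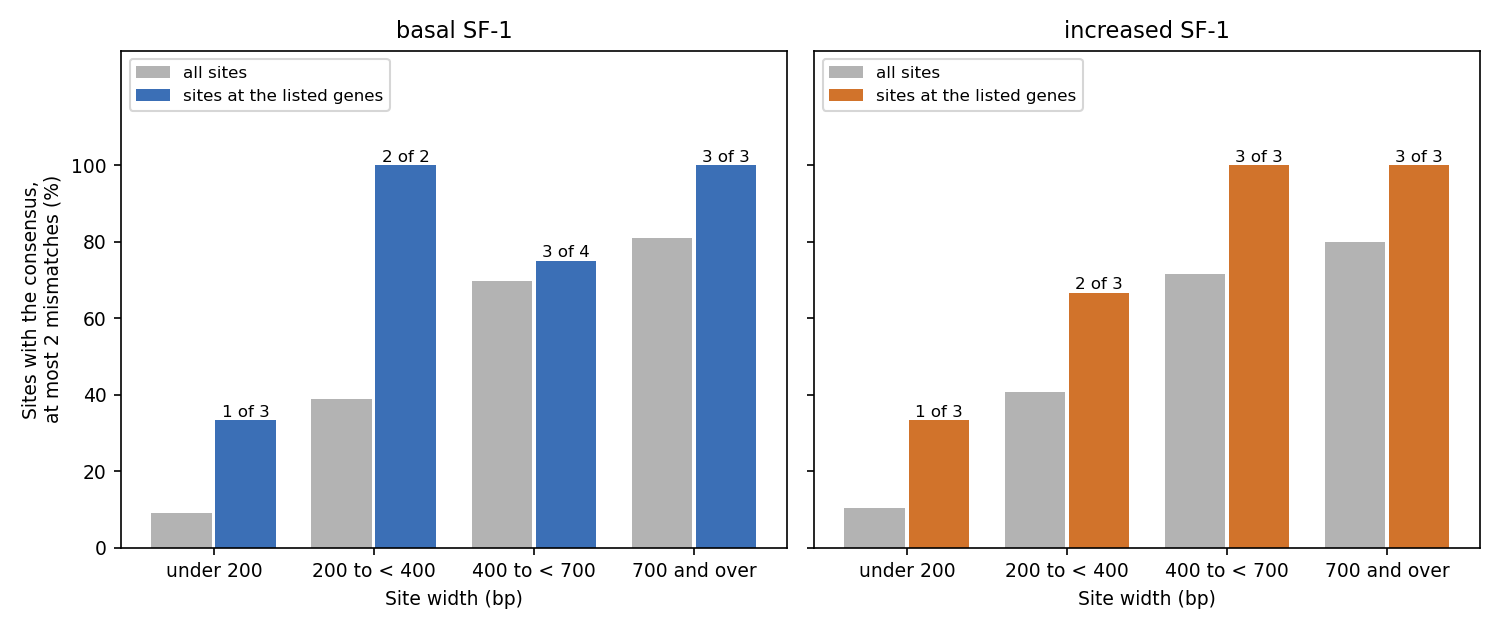
Percentage of sites that hold the NRSF/REST consensus with at most 2 mismatches, by site width in bp, for all sites (grey bars) and for sites at the listed genes (coloured bars, with counts above), in the basal list on the left and the list for increased SF-1 on the right. The grey bars rise from 9.24% to 81.0% on the left, and each coloured bar rests on 2 to 4 sites.

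Read from the sequence side, the listed genes with 10 kb to either side contained 7 matches with up to 1 mismatch, and 6 of them lay in a site at both dosages. All 4 exact elements were covered, while in the whole genome 74.5% of 816 exact elements lay in a basal site and 74.8% in a site at increased SF-1. Of the 3 matches with 1 mismatch, those of STMN2 and STMN3 were covered and that of MAPT, 104314 bp past the start, was not. In the genome 12.0% of 8057 such matches lay in a basal site and 11.9% in a site at increased SF-1. STMN1 and NEFL had no match with fewer than 2 mismatches. MAPT was thus the only listed gene with a match at this limit and no site.

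The SF-1 consensus was searched without mismatch in its forms CAAGGTCA, CAAGGACA and CAAGGCCA on both strands. It occurred in 4 of the 12 sites in each list, at STMN2 region 3, TUBB3 regions 2 and 3 and NEFM, against 11.4% of all basal sites and 11.5% of all sites at increased SF-1. In each of these 4 sites a form lay inside the NRSF/REST match itself, because the NRSF/REST core with TT between its parts reads CAAGGACA on the other strand, or CAAGGCCA where T4G is present. Outside the NRSF/REST matches, taken here with up to 3 mismatches, a form was left in 1 of 12 basal sites and in 0 of 12 at increased SF-1. The shares over all sites were 7.70% and 8.06%. The remaining one was CAAGGTCA at chr16:89990727-89990734 in TUBB3 region 2, in the stretch that belonged to the basal site only. A match describes the letters in the window, and SF-1 binding was not measured in these files.

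Other genes of the microtubule and filament cytoskeleton were taken from 8 lists with 95 genes. A site was found at 22 of them at basal SF-1 (23.2%), at 21 at increased SF-1 (22.1%) and at 18 at both, against 7 of 10 of the listed neuronal genes and the 13.9% and 13.6% of all protein-coding genes. These genes are longer, with a median of 54004 bp. The lists differed. Of 8 alpha tubulins none had a site, and of 8 other beta tubulins 1, TUBB4B, had a site of 399 bp without the consensus at basal SF-1 only, so TUBB3 was the only tubulin gene examined with the consensus in a site. Of 9 other cytoplasmic intermediate filament genes only NES, which encodes nestin of neural progenitors, had a site (349 and 299 bp, 1 mismatch). Of 14 severing and modifying enzymes only FIGN, a microtubule-severing enzyme, had a site, 99 bp wide at increased SF-1.

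Microtubule-associated proteins and tau kinases held most of the other sites. Their genes are long, with median lengths of 110195 and 72093 bp, respectively, against 27219 bp for all protein-coding genes. Of all protein-coding genes, 13.9% had a site at basal SF-1 and 13.6% at increased SF-1. Of 21 other microtubule-associated proteins 9 had a site at each dosage (42.9%). By their widest site these were led by DPYSL5, with 949 bp at basal SF-1 and no match within it, then DCX (doublecortin) with 899 bp and 1 mismatch, and CRMP1 with 849 bp at increased SF-1 and 2 mismatches. DPYSL4 had an exact element in a site of 699 bp, MAPRE3, a plus-end binding protein, had a site of 649 bp at increased SF-1 without a match, and MAP7 one of 499 bp at increased SF-1 with 2 mismatches. Of 11 tau kinases and activators 6 had a site at each dosage (54.5%). CDK5R2 and CDK5R1, the neuronal activators of the kinase CDK5, had an exact element and 1 mismatch, respectively, in sites of 1699 and 399 bp at basal SF-1, the latter centred 11 bp before the start. The others at both dosages were TTBK1 (449 bp, no match), GSK3B (399 bp, 1 mismatch) and MARK2 (at most 249 bp, no match). MARK4 (249 bp, no match) had a site at basal SF-1 only and MARK1 (199 bp, no match) at increased SF-1 only. The MARK4 site lay far upstream, with its midpoint at -158204 bp from the start of the reference transcript. It counted at MARK4 by the limits of the gene record, not by nearness to that start. MAPT itself had no site, and among the kinase genes named here only GSK3B had a match in a site.

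Of 15 axonal motor genes 3 had a site at both dosages (20% at each, against 13.9% and 13.6% of all protein-coding genes). They were DYNC1I1, a dynein intermediate chain (499 and 699 bp, 2 mismatches), KIF5A, a neuronal kinesin heavy chain (399 and 299 bp, no match), and KLC1, a kinesin light chain (149 and 249 bp, 2 mismatches). Of 9 other axonal growth and membrane skeleton genes SPTBN4, a spectrin of the axon initial segment, had a site of 1149 bp at the basal and 999 bp at increased SF-1 with an exact element, and ANK3 (ankyrin-G) had narrow sites of at most 149 bp at basal SF-1 only.

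**Figure D4:**
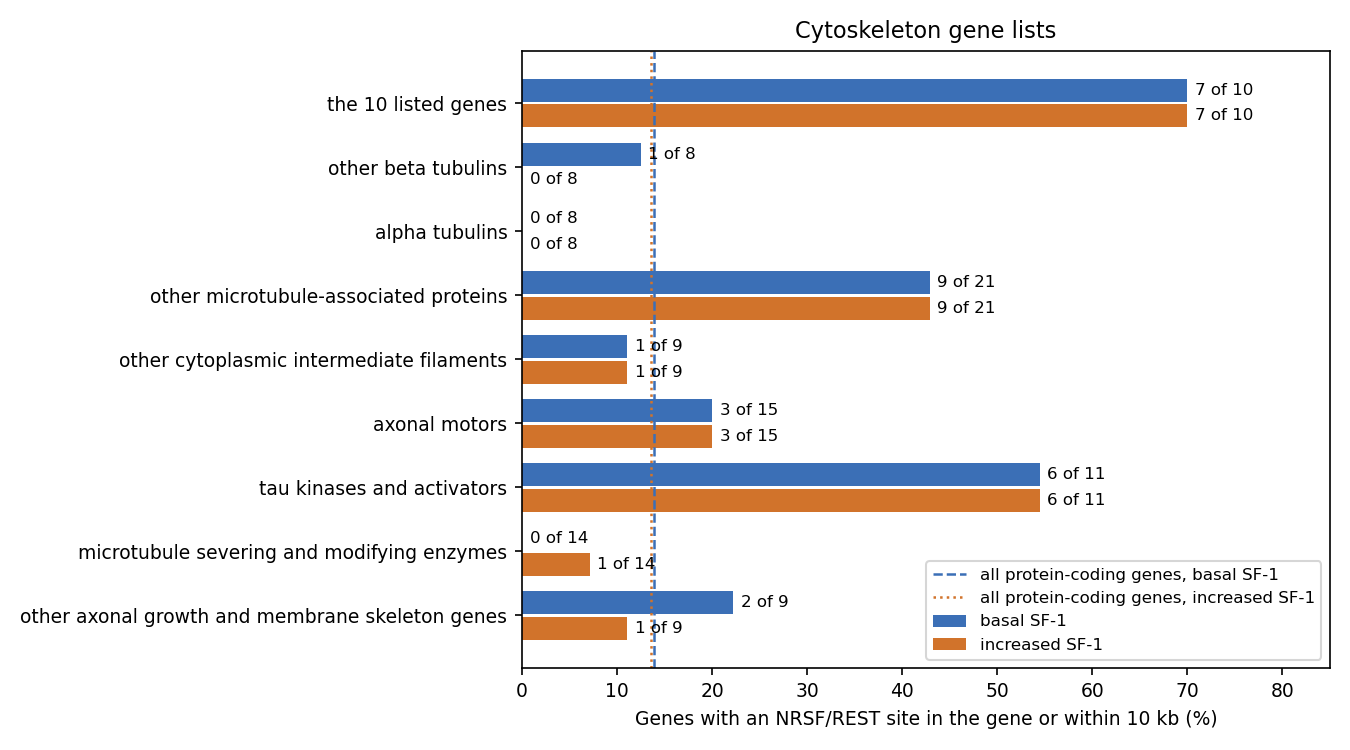
Percentage of genes with an NRSF/REST site in the gene or within 10 kb, for the 10 listed genes and 8 other cytoskeleton lists, at basal SF-1 (blue) and increased SF-1 (orange), with counts beside the bars and the percentages over all protein-coding genes as vertical lines (13.9 and 13.6%). The listed genes reach 7 of 10 at both dosages, the tau kinases 6 of 11 and the alpha tubulins 0 of 8.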

How the data were processed

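NRSF/REST ChIP-seq was analysed from 1 list of called sites per dosage, without the 2 input DNA libraries. Reads had been mapped by the authors with ELAND (hg19; CASAVA 1.6, per the submitters' processing notes). The methods name the CisGenome peak caller for SF-1 sites; the settings for NRSF/REST sites are not given in the sources used here. The deposited score is 1000 for every site, and the other deposited column is an order number. No read counts are given, so the depth of the libraries is unknown. The sample labels give doxycycline at 1 mg/mL, whereas the methods give it in µg/ml.

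Genes came from GENCODE release 44 lifted to hg19 (20163 protein-coding), with starts from the MANE Select transcript or, failing that, the canonical or longest one, and the genome sequence was read with pysam 0.24.0 under Python 3.11.15 (numpy 2.4.6, scipy 1.17.1, matplotlib 3.10.9). The genes and lists were chosen with earlier results of these data known, so no test was made. Named genes were all 10 listed genes, up to 6 genes per other list by widest site, and genes that hold or lie nearest to a site; MARK1 falls outside this rule and was named after its values were seen. Alternatives were other windows, stricter lists, overlap rules and mismatches. On simulated data 200 of 200 planted consensus matches and 500 of 500 overlaps were recovered. Sequences at STMN2, STMN4, NEFL and NEFM are not reported here.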

Additional observations from a re-analysis of the deposited data

How the results depend on the processing

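The values rest on 1 library per dosage and on site limits in 50-bp steps, with no depth or strength per site. Counting gene bodies alone left 4 genes with a site at each dosage and 7 basal and 6 increased-dosage sites, since the sites of STMN2, NEFM and NEFH lie upstream. Windows of 2, 5 or 50 kb gave 7, 7 and 9 genes at each dosage; the wider one added MAPT and NEFL, the latter through the site of NEFM. Among the widest 50% of each list, 7 sites were left at the increased dosage, of which 100% were shared, and 100% held the consensus (the last setting was added after the data were seen). With 0 mismatches allowed, 33.3% of the sites held the consensus in each list. The other alternatives gave 6 to 9 genes, 8 to 16 sites, 77.8 to 91.7% of sites shared and 50 to 88.9% with the consensus. No paired analysis was possible because there is 1 library per dosage and no test.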
